A study of Mus musculus with 12 samples.

Results

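The sarcomere and Z-disc genes described here are 39 named genes of heart muscle. They were chosen by symbol and not by a cutoff on measured values, though with earlier results of these data known. Every non-control probe whose transcript accession maps to any of them was taken. All 39 were found on the array, through 56 of its 55681 probes, and all 39 were among the 29773 genes or unnamed features that were tested. By role they are 4 genes of the thick filament and titin, 10 of the thin filament, 19 of the Z-disc, and 6 of the M-band and its muscle TRIM proteins. RNA came from the heart apex of 15-week male C57BL/6J mice and was measured on 12 single-colour Agilent arrays, 3 per group. Every group carries 1 altered Nkx2-5 allele beside a + allele. The gene codes for a DNA-binding homeodomain protein needed in heart muscle. In control/+ the knock-in keeps an isoleucine, in I183M/+ it becomes methionine, in I183P/+ proline, and in delta/+ the gene is deleted in full. The controls thus carry an engineered allele too. Whether replicates are different animals is not stated, so p-values measure the spread between these samples, which may be technical. In such bulk RNA, fewer cells of a type and less RNA per cell cannot be told apart.

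A sarcomere is the contractile unit between neighbouring Z-discs. Thin filaments of actin, regulated by troponin and tropomyosin, are anchored at the Z-disc by alpha-actinin, and thick filaments of myosin are held together at the M-band by myomesins. Titin runs from the Z-disc to the M-band as a molecular spring. The Z-disc also carries PDZ and LIM proteins, filamin C and desmin, which tie the lattice to its neighbours and to the cell membrane, and the MuRF proteins (Trim54, Trim55 and Trim63) sit at the M-band and are known in muscle protein turnover. In the heart, genes of this kind are known to be driven by transcription factors such as MEF2, serum response factor, GATA4 and Nkx2-5.

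Levels below are log2 intensities relative to each array's 75th percentile, so 0 is that percentile, and a difference of 1 is a doubling. The brightness of different probes is not comparable, so levels are compared between arrays only. Control replicate 1 stood apart: 99.1% of its spots were well above background against 51.2% to 75.2% on the other 11 arrays. Comparisons with control are therefore also given without it, an emphasis chosen after the data were seen. Arrays lay on 2 slides, the first with the 3 control, 3 I183M and first 2 I183P arrays, the second with I183P replicate 3 and the 3 delta arrays. Delta and control therefore share no slide and are linked only through the I183P arrays. With the slide as a block, a comparison of I183P with another group equals its value within 1 slide by construction, and on the second slide I183P is the single array of replicate 3. Nkx2-5 itself read 3.77, 3.78 and 3.92 on the delta arrays and 4.51 to 4.74 on the 6 I183M and I183P arrays. Control replicates 2 and 3 read 4.45 and 4.56, and control replicate 1 read 3.11. The position of its probe is not given, so its place relative to the deletion was not checked.

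Before the values, 4 promoter windows show the kinds of element these genes carry next to their starts. Windows of 300 bases, 250 before and 50 after a transcript start, were read from RefSeq (GRCm38.p6) for 32 of the 39 genes, and none was to hand for Lmod3, Neb, Nexn, Myom2, Myot, Tcap and Trim55. Capitals mark a match to a searched motif on either strand. Palld is shown because its window is the only member window with the Nkx2-5 element TNAAGTG, here on the opposite strand, beside the MCAT element CATTCC. Trim63 is shown for the TATA box TATAAA and a CATTCC element on the opposite strand, Myoz2 for a MEF2 site, and Actc1 for a CArG box, the site of serum response factor, and TATAAA. The windows are chr8:61760040-61760339 on the minus strand for Palld, chr4:134314870-134315169 on the plus strand for Trim63, chr3:123034938-123035237 on the minus strand for Myoz2 and chr2:114052826-114053125 on the minus strand for Actc1.
Palld: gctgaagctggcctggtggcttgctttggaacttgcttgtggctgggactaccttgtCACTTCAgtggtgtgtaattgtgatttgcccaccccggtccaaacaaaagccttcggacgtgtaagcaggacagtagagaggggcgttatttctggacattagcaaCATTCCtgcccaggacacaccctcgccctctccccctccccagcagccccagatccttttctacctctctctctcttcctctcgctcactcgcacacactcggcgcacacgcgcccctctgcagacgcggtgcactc
Trim63: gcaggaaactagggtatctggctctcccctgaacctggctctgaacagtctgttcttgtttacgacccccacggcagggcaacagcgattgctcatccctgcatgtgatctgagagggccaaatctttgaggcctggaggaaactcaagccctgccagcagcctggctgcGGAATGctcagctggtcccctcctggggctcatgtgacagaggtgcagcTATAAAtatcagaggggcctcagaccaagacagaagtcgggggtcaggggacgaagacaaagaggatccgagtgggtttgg
Myoz2: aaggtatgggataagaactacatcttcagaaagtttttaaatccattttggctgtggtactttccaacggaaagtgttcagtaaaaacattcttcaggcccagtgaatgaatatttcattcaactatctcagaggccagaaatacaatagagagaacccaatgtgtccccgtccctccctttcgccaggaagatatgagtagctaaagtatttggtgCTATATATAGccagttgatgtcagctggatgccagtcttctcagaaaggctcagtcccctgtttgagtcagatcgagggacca
Actc1: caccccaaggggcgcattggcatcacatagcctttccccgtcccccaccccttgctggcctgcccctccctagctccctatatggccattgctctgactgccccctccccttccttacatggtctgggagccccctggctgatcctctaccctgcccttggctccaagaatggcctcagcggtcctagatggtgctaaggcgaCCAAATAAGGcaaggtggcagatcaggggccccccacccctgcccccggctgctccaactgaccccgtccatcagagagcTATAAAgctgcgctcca

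The MEF2 site was searched as a loose pattern whose middle bases may be any letter. Among the 32 genes with a window, 9 held a match to it (28.12%, against 4.23% of all 27025 genes with a window). They were Capzb, Des, Flnc, Ldb3, Mybpc3, Myoz2, Synpo2, Synpo2l and Ttn. In Capzb, Des, Flnc and Ldb3 the middle bases include G or C, and in the other genes named they are all A or T. Both percentages include matches of either kind, and matches with only A or T there were not counted alone. A CArG box was found in 6 (18.75% against 1.81%): Actc1, Fhl2, Ldb3, Myl3, Myom1 and Nebl. The element CATTCC occurred in 13 (40.62% against 16.58%), TATAAA in 8 (25% against 15.67%) and the GATA site AGATAA in 6 (18.75% against 12.7%). TNAAGTG was found in 1 gene, Palld (3.12% against 13.07%), and in Palld in only 1 of its windows. In Synpo2 the MEF2 and TATAAA matches overlap. These are letter matches in short windows, not measured binding, and no match says only that the letters are not in this window.

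No sarcomere or Z-disc gene passed the threshold in any comparison. At an adjusted p under 0.05 (limma's moderated test over all 29773 genes, Benjamini-Hochberg), 0 of 39 were called in I183M versus control, I183P versus control and delta versus control, against a background of 0%, 0.00336% and 0.0739% of all genes. The same held for the direct comparisons I183P versus I183M, delta versus I183M and delta versus I183P, where the background was 0% each, and for the F test of any difference among the 4 groups (background 0.00672%). At an unadjusted p under 0.05, the members called were 1 in I183M versus control (background 1.46%), 1 in I183P versus control (5.18%), 2 in delta versus control (7.36%) and 0 in the 3 direct comparisons (1.28%, 3.51% and 2.78%). The F test had 1 (3.95%). These 4 calls fall on Myom3, on Myot in both of its comparisons, and on Trim55. Without control replicate 1 the count at adjusted p under 0.05 was 0 in all 6 comparisons as well, and the unadjusted counts were 2 (background 6.16%), 2 (8.17%) and 6 (14.9%) against control. In the direct comparisons they were then 0 for I183P versus I183M (background 9.52%), 4 for delta versus I183M (11.5%) and 3 for delta versus I183P (12.1%). The background at adjusted p under 0.05 was then 0%, 0.0168% and 0.171% against control and 0%, 0.0437% and 0.0235% in the direct comparisons. With all arrays, 36, 35 and 35 of 39 folds against control lay above 0 (background 56.7%, 48.9% and 52.2%). In the fit that leaves out control replicate 1 they were 21, 21 and 22 (background 63.7%, 51.8% and 66.7%).

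How small a change these arrays could show is given by the intervals. With all arrays the median half-width of the 95% interval was 0.77, because the 1 spread shared by all groups holds control replicate 1, and 3, 6 and 4 of 39 genes had their whole interval within 1 log2 unit of 0 in the 3 comparisons with control. Without that array the half-width was 0.35 against control and 34, 36 and 34 genes lay within that bound. In that fit a doubling or halving therefore lay outside the interval of most members.

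**Figure D1:**
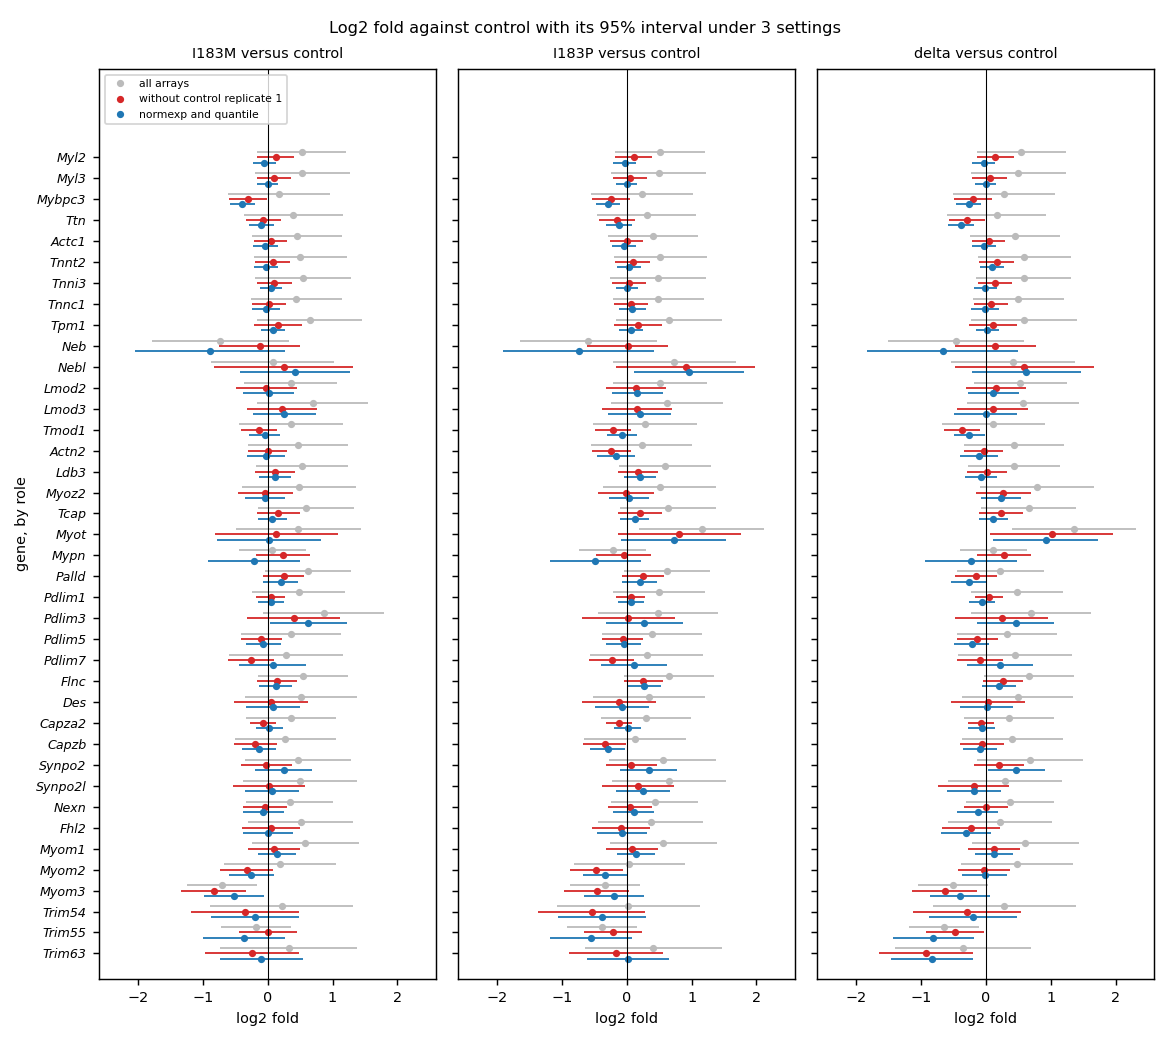
Log2 fold of each of the 39 genes against control (x axis) with its 95% interval (horizontal bar), for I183M, I183P and delta, with all arrays, without control replicate 1, and with normexp background correction and quantile normalization. With all arrays most points lie to the right of 0, at medians of 0.46, 0.48 and 0.45, and without control replicate 1 the medians are 0.03, 0.02 and 0.04.

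The members moved together on control replicate 1. Of the 39, 35 read below the mean of control replicates 2 and 3 there, with a median gap of -1.33 and a range from -1.71 to 1.82. Against the mean of the other 11 arrays the members' median level was -1.32 on that array and between -0.11 and 0.08 on the others, while all genes tested had a median of 0.20 there. The 14 ventricular cardiomyocyte markers, such as Myh6, Ryr2 and Pln, were at -1.34 on that array, the smooth muscle and pericyte markers at -1.32, the fibroblast markers at -1.16 and the skeletal muscle markers at 0.19. The 75th percentile that is subtracted in these values was a signal of 1450, 615 and 589 on control replicates 1, 2 and 3. Before that subtraction Myl2 read 424996, 410887 and 399478 on these arrays, and Neb read 2411, 273 and 295. The part of that array's signal range in the members' values was not tested. With normexp background correction and quantile normalization, which forces the arrays to 1 distribution, the members' median on control replicate 1 was -0.01.

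**Figure D2:**
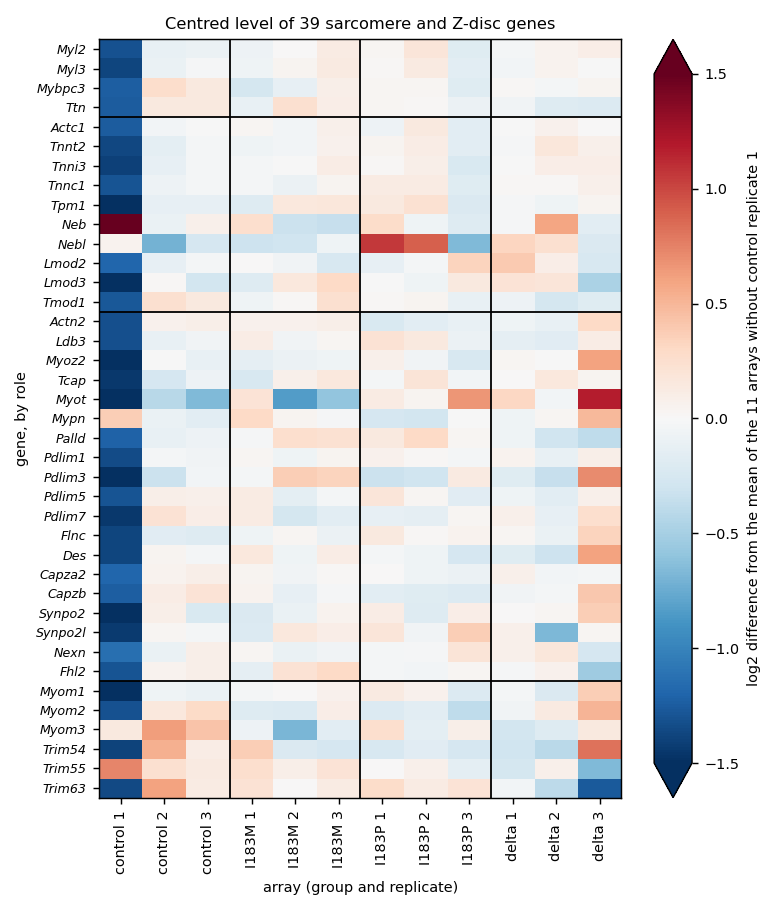
Level of each gene (rows, by role) on each array (columns), as the log2 difference from its mean over the 11 arrays without control replicate 1. The column of control replicate 1 is blue for 34 of 39 genes, with a median of -1.32, and delta replicate 3 holds 14 row maxima and 7 row minima of the 11 arrays.

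Outside that array most members varied little. Over the 11 other arrays a member's highest and lowest levels differed by a median of 0.58, against 1.05 for all genes, and 32 of 39 stayed within 1 log2 unit (48.3% of all genes did). With quantile normalization the members' median was 0.51 against 0.61 for all genes, and 33 of 39 stayed within 1 log2 unit against 82.0% of all genes, so the gap between members and other genes was smaller there. The narrowest range was 0.17 for Capza2, a subunit of the protein that caps actin filaments at the Z-disc, and the widest was 2.01 for Myot. The other ranges over 1 log2 unit were those of Trim63, Nebl, Myom3, Trim54, Pdlim3 and Synpo2l. Apart from Nebl, which encodes the thin filament protein nebulette, these are genes of the Z-disc or of the M-band group.

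**Figure D3:**
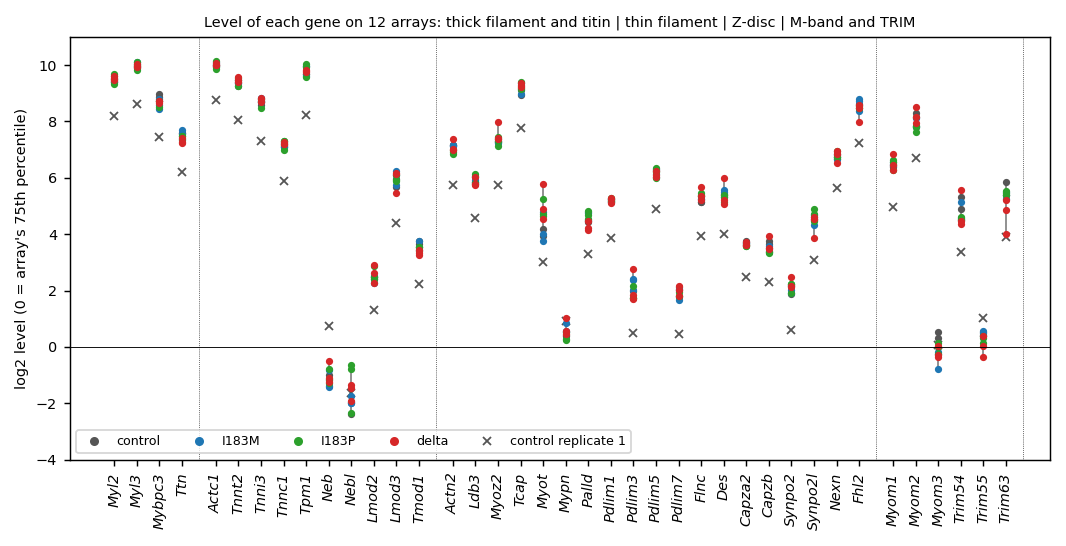
Log2 level (y axis, 0 is the array's 75th percentile) of each gene on 12 arrays, ordered by role, with control replicate 1 as a cross and a grey line from the lowest to the highest of the other 11 arrays. Probes differ in brightness for technical reasons, so heights are not compared between genes. The crosses lie below the other points for most genes, and the lines of Myot and Trim63 span 2.01 and 1.86.

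In the thick filament, Myl2, the regulatory myosin light chain of the ventricle, read 8.19, 9.38 and 9.40 in control, 9.43, 9.50 and 9.62 in I183M, 9.52, 9.68 and 9.31 in I183P and 9.47, 9.55 and 9.60 in delta. All but control replicate 1 lay within 0.36, and both I183M and delta lay above the controls by small gaps. Its log2 fold with all arrays was 0.52, 0.51 and 0.55 (SE 0.31) for I183M, I183P and delta against control, with adjusted p 0.879, 0.563 and 0.703. Leaving out control replicate 1 gave folds of 0.12, 0.11 and 0.15 (SE 0.12). Delta versus control was 0.83 with the slide as a block, and -0.03 on the quantile scale described below.

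Myl3, the essential light chain, read 8.60, 9.88 and 9.96 in control, 9.91 to 10.11 in I183M, 9.82 to 10.12 in I183P and 9.94 to 10.03 in delta, so all groups overlapped. Its folds without control replicate 1 were 0.09, 0.05 and 0.06 (SE 0.12). With quantile normalization the brightest probes of every array receive the same value, and the Myl3 difference is 0 by construction. The median fold of the 4 thick filament and titin genes against control was 0.46, 0.40 and 0.39 with all arrays and 0.01, -0.05 and -0.07 without control replicate 1, where 2 of 4 genes lay above 0 in each comparison.

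Mybpc3 and Ttn had lower means in the other groups than in control once control replicate 1 was left out or the arrays were quantile normalized. Both are singled out after their values were seen, and with all arrays their folds were above 0. Mybpc3, the myosin binding protein C of heart muscle, read 7.46, 8.96 and 8.85 in control and 8.44 to 8.78 on the 9 arrays of the other groups. Controls 2 and 3 were the highest of the 11 arrays. Its folds without control replicate 1 were -0.31, -0.25 and -0.20 (SE 0.13, adjusted p 0.726, 0.704 and 0.507). On the quantile scale all 3 controls of Mybpc3 (18.02 to 18.15) lay above the 9 other arrays (17.64 to 17.88), with folds of -0.39, -0.29 and -0.27 (SE 0.08) and adjusted p 0.822, 0.491 and 0.306. Ttn, which encodes titin, had its lowest mean in delta, at 7.40, 7.26 and 7.25 against 7.60 on both of these controls, 7.34, 7.69 and 7.55 in I183M and 7.48, 7.47 and 7.37 in I183P. The delta arrays lay below controls 2 and 3 and overlapped the other groups. For Ttn, I183M replicate 2 was the highest of the 11 arrays. With control replicate 1 and delta replicate 3 left out, its I183M and I183P folds against control were -0.07 and -0.16 (SE 0.12). Delta versus control for Ttn was -0.29 without control replicate 1 (SE 0.12, adjusted p 0.303) and -0.39 on the quantile scale (SE 0.09, adjusted p 0.159). The other Ttn probes were mixed against controls 2 and 3. A dimmer probe also read lower in delta, at 4.84, 4.58 and 4.50 against 5.17 and 4.98. Another read 3.41, 3.28 and 3.22 in delta against 3.28 and 3.10. The last overlapped, at 2.30, 2.16 and 2.63 against 2.54 and 2.56.

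In the thin filament, Tnnt2, the troponin that binds tropomyosin, read 8.04, 9.26 and 9.38 in control, 9.35, 9.37 and 9.47 in I183M, 9.46, 9.53 and 9.25 in I183P and 9.40, 9.58 and 9.48 in delta. The 3 delta values lay just above the controls, and the other groups overlapped them. Its fold in delta versus control was 0.59 (SE 0.32, adjusted p 0.703) and 0.16 without control replicate 1 (SE 0.12, adjusted p 0.544). Tpm1, the alpha tropomyosin that lies along actin, read 8.23, 9.68 and 9.68 in control and 9.58 to 10.02 on the other 9 arrays. Its folds without control replicate 1 were 0.16, 0.17 and 0.10 (SE 0.16). With the slide as a block and all arrays, delta versus control was larger for these bright genes, at 0.84 for Tnnt2 and 0.99 for Tpm1.

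Lmod3, a leiomodin that nucleates thin filaments, read 4.41, 5.96 and 5.67 in control, 5.76, 6.11 and 6.25 in I183M, 5.94, 5.88 and 6.10 in I183P and 6.16, 6.13 and 5.47 in delta. Groups overlapped, and delta replicate 3 was the lowest of the 11 arrays. Its fold in I183M versus control was 0.69 (SE 0.38, adjusted p 0.879) and 0.22 without control replicate 1. Nebl had a dim probe and read -1.64, -2.39 and -1.94 in control, -2.0, -1.99 and -1.75 in I183M, -0.63, -0.79 and -2.35 in I183P and -1.36, -1.44 and -1.91 in delta. The 2 I183P arrays on the first slide were its highest, and the I183P array on the second slide lay among the lowest. Its I183P versus I183M fold was 0.66 (SE 0.42, adjusted p 1), and 1.20 within the first slide.

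The remaining thin filament genes were Actc1 (cardiac actin), Tnni3 and Tnnc1 (the inhibitory and calcium-binding troponins), Neb (nebulin), Lmod2 (a second leiomodin) and Tmod1 (tropomodulin, which caps the pointed end). Ranges over the 11 arrays were 0.30 for Actc1, 0.34 for Tnni3, 0.30 for Tnnc1, 0.63 for Lmod2, 0.51 for Tmod1 and 0.94 for Neb. Without control replicate 1, Tmod1 had its lowest mean in delta (3.44, 3.25 and 3.34 against 3.76 and 3.67 on control replicates 2 and 3). I183P replicate 3, on the slide of the delta arrays, read 3.41, so delta overlapped I183P. The fold in delta versus control was then -0.37 (SE 0.12, adjusted p 0.211). Tmod1 too is named after its values were seen. The median fold of the 10 thin filament genes against control was 0.45, 0.50 and 0.52 with all arrays and 0.06, 0.08 and 0.12 without control replicate 1.

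At the Z-disc the gene with the largest difference was Myot, which encodes myotilin, a protein that binds alpha-actinin and filamin C. It read 3.03, 4.18 and 3.93 in control, 4.80, 3.76 and 4.0 in I183M, 4.71, 4.63 and 5.26 in I183P and 4.90, 4.55 and 5.77 in delta. All 6 I183P and delta arrays lay above the 3 controls, I183M overlapped both, and delta replicate 3 was the highest. The log2 fold was 1.36 in delta versus control (SE 0.43, p 0.0104, adjusted p 0.427) and 1.15 in I183P versus control (adjusted p 0.563), and neither passed. In I183M versus control it was 0.47 (adjusted p 0.879).

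Without control replicate 1 the Myot folds were 1.02, 0.81 and 0.13 for delta, I183P and I183M, and with delta replicate 3 left out as well delta versus control was 0.67 (SE 0.37, adjusted p 0.477). Blocking on slide gave 0.78 in delta versus control and 0.96 in I183P versus control. On the quantile scale delta versus control was 0.92 (SE 0.36, adjusted p 0.431), or 0.20 if slide is a block there.

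Myotilin is also a gene of skeletal muscle. Of 15 listed markers 10 were tested, and Myh1, Myh2, Mylpf, Actn3 and Myod1 were well above background on at most 2 arrays. The summed signal of the 10, on a linear scale relative to the 75th percentile, was 19.9, 52.7 and 41.1 in control, 78.3 to 83.9 in I183M, 78.8 to 132 in I183P and 70.1 to 112 in delta. It was highest on I183P replicate 3 and delta replicate 3, which were also the 2 highest arrays for Myot. Myl1 alone made up 80.8% and 74.9% of the sum on these 2 arrays, 65.9% to 74.3% on the 7 other arrays of I183M, I183P and delta and 35.0% to 54.4% in control. As a list the markers did not peak on these arrays: their median difference from the mean of the 11 arrays was -0.06 on I183P replicate 3 and 0.07 on delta replicate 3, against 0.25 and 0.24 on delta replicates 1 and 2. Their part in the Myot result was not tested.

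Palld encodes palladin, an actin bundling protein related to myotilin. It read 3.31, 4.42 and 4.45 in control, 4.51, 4.78 and 4.75 in I183M, 4.67, 4.82 and 4.55 in I183P and 4.46, 4.23 and 4.15 in delta. The 3 delta arrays lay below all 6 I183M and I183P arrays, which in turn lay above all controls. Delta versus I183M and delta versus I183P were each -0.40 (SE 0.30, adjusted p 1). In the fit without control replicate 1, whose spread these comparisons share, the SE was 0.12 with p 0.0114 and 0.0115 (adjusted p 0.272 and 0.328).

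Against control, the Palld folds were 0.62 for both I183M and I183P and 0.22 for delta, and without control replicate 1 they were 0.25, 0.25 and -0.15. Within the second slide, against the 1 I183P array there, delta versus I183P was -0.27, and with the slide as a block delta versus I183M was -0.21. On the quantile scale the 2 delta comparisons were -0.46 each (SE 0.12, adjusted p 0.407 and 0.845).

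Pdlim3, an alpha-actinin binding PDZ and LIM protein, read 0.49, 1.72 and 2.00 in control, 2.01, 2.41 and 2.37 in I183M, 1.73, 1.74 and 2.18 in I183P and 1.86, 1.69 and 2.75 in delta. I183M lay above all controls, by a narrow gap at the nearest pair of arrays. Its fold in I183M versus control was 0.86 (SE 0.41, adjusted p 0.879) and 0.40 without control replicate 1. Delta replicate 3 stood 0.97 above the mean of the other delta arrays, and the Pdlim3 fold of delta versus control was 0.70 with it and 0.38 without it. With control replicate 1 left out it was 0.24, and with both arrays left out it turned to -0.08.

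Flnc, the muscle filamin that links the Z-disc to the membrane, read 3.94, 5.15 and 5.13 in control, 5.26, 5.35 and 5.23 in I183M, 5.48, 5.35 and 5.37 in I183P and 5.35, 5.22 and 5.66 in delta. All 9 arrays of the other groups lay above the controls. The folds were 0.54, 0.66 and 0.67 (SE 0.31, adjusted p 0.879, 0.563 and 0.699), and without control replicate 1 they were 0.14, 0.26 and 0.27 (SE 0.13).

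Tcap (telethonin, which joins titin molecules at the Z-disc) read 7.75, 8.95 and 9.13 in control, 8.96, 9.28 and 9.36 in I183M, 9.18, 9.40 and 9.16 in I183P and 9.21, 9.36 and 9.24 in delta. I183P and delta lay above the controls, and I183M overlapped them. Its folds without control replicate 1 were 0.16, 0.21 and 0.23 (SE 0.15). Mypn, myopalladin, had a dim probe and read 0.91, 0.43 and 0.37 in control, 0.83, 0.58 and 0.52 in I183M, 0.28, 0.26 and 0.53 in I183P and 0.47, 0.57 and 1.02 in delta. Control replicate 1 was among its highest arrays, and all groups overlapped. Delta versus I183P was 0.33 (SE 0.23, adjusted p 1), or 0.16 if slide is a block, and I183P versus I183M was -0.29.

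The other Z-disc genes were Actn2 (alpha-actinin), Ldb3, Pdlim1, Pdlim5 and Pdlim7 (PDZ and LIM proteins), Myoz2 (a calcineurin-binding calsarcin), Des (desmin), Capza2 and Capzb (actin capping), Synpo2 and Synpo2l (actin-binding synaptopodin-2 proteins), Nexn (nexilin) and Fhl2 (a LIM protein that binds titin). Ranges over the 11 arrays ran from 0.17 for Capza2 and 0.20 for Pdlim1 to 0.92 for Des and 1.04 for Synpo2l. Over all 19 Z-disc genes the median fold against control was 0.47, 0.48 and 0.43 with all arrays and 0.04, 0.02 and 0.02 without control replicate 1.

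In the M-band group, Trim63, the ubiquitin ligase MuRF1, read 3.91, 5.87 and 5.38 in control, 5.48, 5.26 and 5.39 in I183M, 5.54, 5.38 and 5.47 in I183P and 5.22, 4.87 and 4.0 in delta. The 3 delta arrays lay below all I183M and I183P arrays and below controls 2 and 3. The fold was -0.68 in delta versus I183M and -0.76 in delta versus I183P (SE 0.47, adjusted p 1), or -0.33 and -0.41 with delta replicate 3 left out, and -0.35 in delta versus control (adjusted p 0.841). Its second probe gave -0.79 and -0.85 in the same 2 comparisons, with 3.18, 2.71 and 1.91 in delta.

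For Trim63 in delta versus control, omitting control replicate 1 gave -0.92 (SE 0.32, p 0.0189, adjusted p 0.230). Delta replicate 3 was by far the lowest, and with it left out too the fold was -0.58 (SE 0.19, adjusted p 0.264). On the second slide, against I183P replicate 3 alone, delta versus I183P was -0.77. On the quantile scale delta versus control was -0.83, delta versus I183M -0.73 and delta versus I183P -0.85 (SE 0.28, adjusted p 0.354, 0.691 and 0.920).

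Trim55, the ligase MuRF2, read 1.03, 0.54 and 0.43 in control, 0.55, 0.38 and 0.51 in I183M, 0.31, 0.38 and 0.15 in I183P and 0.03, 0.37 and -0.36 in delta. Delta and I183P lay below all controls. Both lay below I183M by a very narrow gap, with highest values of 0.372 and 0.376 against a lowest I183M value of 0.384. Delta versus control was -0.65 (SE 0.24, p 0.0229, adjusted p 0.561), -0.47 without control replicate 1 and -0.28 with delta replicate 3 left out as well. With the slide as a block it was -0.46, and delta versus I183M was -0.47 without the block and -0.27 with it. Trim54, MuRF3, overlapped between groups, and delta read 4.47, 4.36 and 5.58 against 3.38, 5.30 and 4.88 in control, 5.14, 4.56 and 4.51 in I183M and 4.53, 4.60 and 4.52 in I183P. Control replicate 1 was its lowest array and delta replicate 3 its highest. With both left out the Trim54 folds against control were -0.35 in I183M, -0.54 in I183P (p 0.0371, adjusted p 0.436) and -0.67 in delta (SE 0.23, p 0.0227, adjusted p 0.278).

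Myom3, a myomesin of some striated muscles, had a dim probe and read 0.06, 0.53 and 0.34 in control, -0.17, -0.78 and -0.25 in I183M, 0.16, -0.24 and -0.00 in I183P and -0.37, -0.29 and 0.05 in delta. I183M and delta lay below all controls, delta by a narrow gap at the nearest pair. The fold in I183M versus control was -0.71 (SE 0.24, p 0.0152, adjusted p 0.879), -0.83 without control replicate 1 (SE 0.22, adjusted p 0.726) and -0.51 on the quantile scale (adjusted p 0.822). With the replicate number as a block between these 2 groups, a pairing the labels do not state, the Myom3 p was 0.158. All arrays of both groups lie on the first slide.

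Myom2, the M-protein, read 6.70, 8.17 and 8.30 in control, 7.82, 7.81 and 8.11 in I183M, 7.81, 7.85 and 7.64 in I183P and 7.96, 8.15 and 8.52 in delta. Delta lay above I183P on every array, and I183M and I183P lay below controls 2 and 3. Delta versus I183P was 0.44 (SE 0.38, adjusted p 1), and 0.57 within the second slide. Without control replicate 1, Myom2 in I183P versus control was -0.47 (SE 0.18, adjusted p 0.519) and in delta versus control -0.03. Myom1, the main myomesin of the M-band, differed from control by 0.10, 0.08 and 0.13 without control replicate 1.

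Taking the 6 M-band and TRIM genes together, the median fold against control was 0.20, 0.03 and -0.04 with all arrays. Without control replicate 1 it was -0.28, -0.33 and -0.38, where Myom1 was the 1 gene above 0 in each comparison. The median of all genes was then 0.09, 0.01 and 0.16. The 3 comparisons share controls 2 and 3, and control replicate 2 was the highest array for Trim63 and Myom3. On the quantile scale, with all 3 controls, the medians were -0.23, -0.27 and -0.29.

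**Figure D4:**
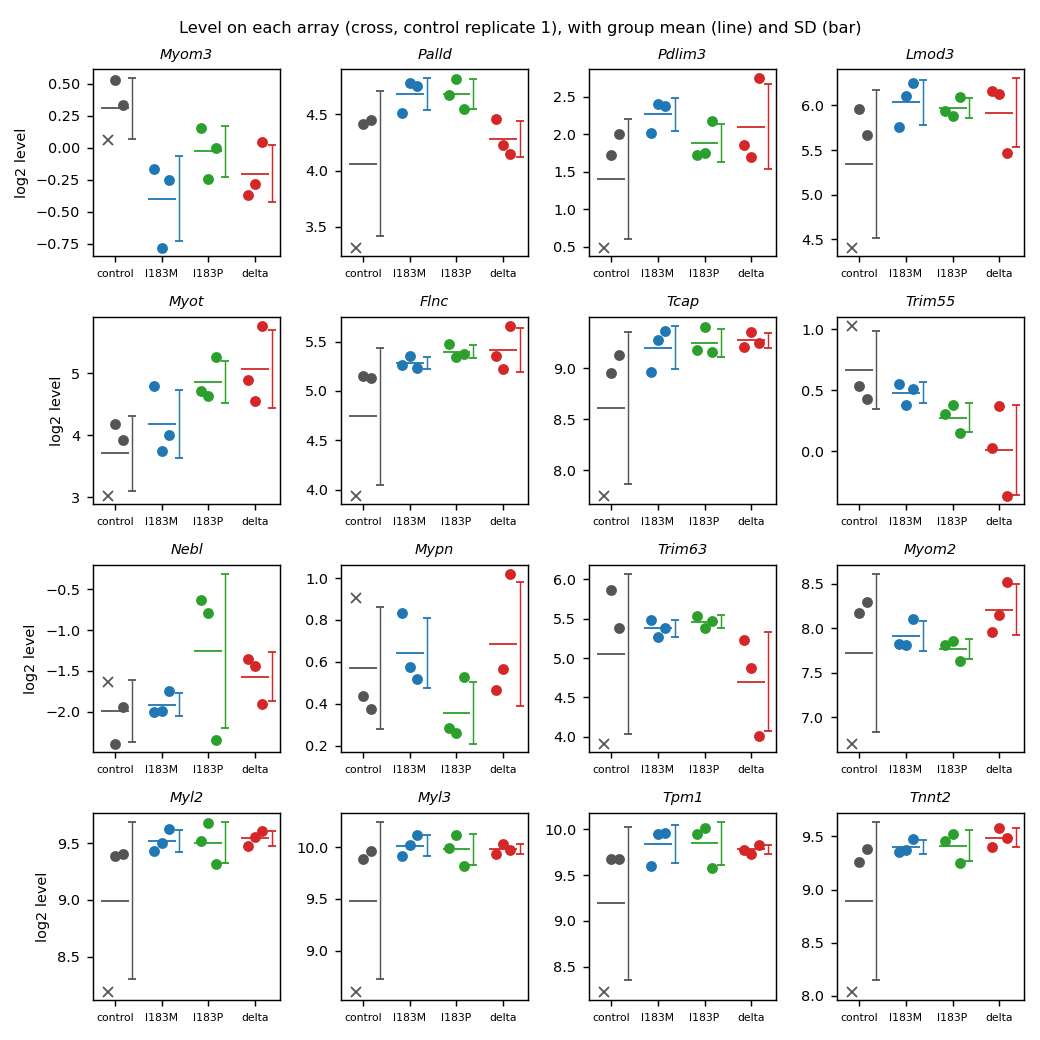
Log2 level of 16 genes on each array by group (x axis), with the group mean as a line and the SD (n = 3) as a bar. Control replicate 1 is a cross. In delta, Trim63 lies at 4.0 to 5.22, below every I183M and I183P array, and Palld at 4.15 to 4.46, also below them. Myot lies at 4.55 to 5.77 in delta, above all controls.

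Groups can also be compared by whether their arrays overlap, which needs no model. Delta and control were separated in 11 of 39 genes (background 13.6% of all genes), I183M and control in 8 (background 3.73%), and I183P and control in 5 (background 12.8%). By direction, I183M had 7 higher and 1 lower (background 2.36% and 1.37%), I183P 4 and 1 (7.56% and 5.23%), and delta 9 and 2 (10.5% and 3.1%). In the direct comparisons, which do not hold the control arrays, the counts were 3 for I183P and I183M (background 24.4%), 5 for delta and I183M (17.3%) and 4 for delta and I183P (19.4%). Without control replicate 1 they were 13, 17 and 17 against control, with backgrounds of 32.5%, 30.5% and 34.1%. A gene separated from all 3 controls is also separated from controls 2 and 3, so leaving out control replicate 1 cannot lower these counts.

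Delta replicate 3 differed from its group in many Z-disc genes. Among the 11 arrays it was the highest for 14 of 39 members and the lowest for 7, against 17.7% and 13.6% of all genes. It was highest for 11 of the 19 Z-disc genes, for Myom1, Myom2 and Trim54, and for no gene of the thick or thin filament. Against the mean of the other delta arrays its gap was 1.16 for Trim54, 1.04 for Myot, 0.97 for Pdlim3, 0.85 for Des and 0.59 for Myoz2, and on the low side -1.04 for Trim63 and -0.67 for Lmod3. I183P replicate 3, which shares its slide, was the lowest array for 12 members, 5 of them in the thin filament (17.3% of all genes), and on the quantile scale for 2 members (9.10% of all genes). Des read 5.22, 5.09 and 6.00 in delta and 5.15 to 5.56 on the 8 other arrays. Myoz2 read 7.40, 7.37 and 7.97, against 7.13 to 7.44 there. On the quantile scale delta replicate 3 was highest for 13 members and lowest for 10 (15.7% and 14.4% of all genes). The 10 fibroblast markers had their lowest median there, at -0.52 from the mean of the 11 arrays (other 10 arrays, -0.13 to 0.18). Of these 10, 6 were at their lowest there and 2 at their highest. The summed signal of the 10 was 388 against 406 and 347 on the other delta arrays. The 12 smooth muscle and pericyte markers, a list that includes Des, were at -0.32 (other arrays -0.20 to 0.21). Of these 12, 4 were at their lowest and 2 at their highest. The part of these in the Z-disc values was not tested.

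For 30 genes a single probe was present, and for 9 several. The probes of Trim63 agreed in direction in each comparison. In Tpm1, 2 bright probes read lower on control replicate 1 than on all other arrays (8.23 on both), whereas the dim probe for another of its transcripts read -0.11 there and -2.92 to -1.69 elsewhere, so its fold in delta versus control was -0.82 where the bright probes gave 0.59 and 0.52. Both dim Neb probes also read high on control replicate 1, at 0.73 and -0.60, against highest values of -0.48 and -1.81 on the other arrays. For Ttn, delta versus I183M ran from -0.23 to 0.49 over 4 probes, and for Pdlim7 from -0.56 to 0.36 over 3.

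Further genes of the contractile apparatus were counted from 2 lists of symbols. Of 57 other sarcomere genes 51 were tested, and 0 passed at an adjusted p under 0.05 in the comparisons with control (limma; 2, 5 and 6 at an unadjusted p under 0.05). Of 25 costamere and intercalated disc genes, which couple sarcomeres to the membrane and to the next cell, all 25 were tested and 0 passed (1, 0 and 1 unadjusted). The background percentages are those given above. Medians against control were 0.34, 0.40 and 0.46 in the first list and 0.42, 0.38 and 0.43 in the second, and without control replicate 1 they were 0.01, 0.02 and 0.08 in the first and -0.00, -0.03 and -0.00 in the second.

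Myh7, the slow myosin heavy chain, read 3.30, 4.65 and 5.70 in control, 6.03, 4.72 and 5.50 in I183M, 5.39, 5.58 and 6.28 in I183P and 6.30, 6.38 and 8.22 in delta. Delta lay above every other array, by a very narrow gap to I183P replicate 3, and delta replicate 3 was the highest. The Myh7 fold in delta versus control was 2.42 (SE 0.69, adjusted p 0.383) and 1.79 without control replicate 1 (adjusted p 0.257). Both folds include delta replicate 3. Myh7b, a related slow myosin, read 4.65, 6.28 and 6.23 in control and 6.95, 6.89 and 7.37 in delta, with 6.39 to 6.60 on the other 6 arrays. Its fold was 1.35 (SE 0.39, adjusted p 0.390), and 0.82 without control replicate 1 (adjusted p 0.0864).

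Myl1, a skeletal myosin light chain, read 2.80, 4.84 and 4.16 in control and 5.63 to 6.74 on the 9 other arrays, so no control array overlapped them. The folds were 1.88, 2.22 and 2.07 (SE 0.48, adjusted p 0.879, 0.557 and 0.277), and 1.31, 1.65 and 1.50 without control replicate 1. Pdlim4, a relative of Pdlim3, read 1.80, 3.18 and 3.28 in control and 3.67 to 4.28 elsewhere, with folds of 1.19, 1.34 and 1.04 (SE 0.36). Mybpc2, the fast skeletal myosin binding protein C, had folds of 0.66, 1.07 and 1.23 (SE 0.42). Myl1 and Mybpc2 are themselves on the list of skeletal muscle markers whose summed signal, with the share of Myl1, is given above. Those of Fhod3, a formin of the sarcomere, were 0.64, 0.55 and 0.32 (SE 0.34). In the costamere list, the folds in delta versus control were 0.62 for Itgb1 (integrin beta 1), 0.64 for Itga7 (its muscle partner), 0.46 for Tln2 (talin 2) and 0.74 for Gja1 (connexin 43), and none passed. Without control replicate 1 they were 0.32, 0.16, 0.21 and 0.29. In the same fit the delta versus control folds were 0.56 for Pdlim4, 1.02 for Mybpc2 and -0.13 for Fhod3.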

How the data were processed

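RNA labelled with Cy3 was hybridised to 12 single-colour arrays, 3 per genotype, and scanned. The deposited intensity values, 59305 non-control spots per array, come from the scanner software, per the file headers (Agilent Feature Extraction, version 11.0.1.1, protocol GE1_1100_Jul11), and the processed signal is background-subtracted there. The submitters' processing notes name Agilent Feature Extraction and limma. The authors' deposited value table, on a log2 scale, was used only as an alternative.

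From these, log2 of the processed signal minus each array's 75th percentile was taken, outlier spots were dropped, and spots of a probe were averaged. Probes well above background on at least 3 of 12 arrays were kept, and a gene was read from its kept probe of highest mean. Symbols came from RefSeq (GRCm38.p6). R 4.3.3 and limma 3.58.1 (lmFit, eBayes) gave 6 comparisons and an F test in 1 fit over all arrays, with Benjamini-Hochberg adjustment over 29773 genes. The quantile scale is normexp background correction (offset 50) followed by quantile normalization. The fit was tested on simulated data. The number of arrays limits the precision.

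The members, lists and rules were chosen with earlier results of these data known. Values on every array are given for the 4 members with the smallest p in each comparison and the 2 with the smallest F test p in each role; of the further lists, the 3 genes with the smallest p in each comparison with control are named. Same-numbered arrays deviated together in control and I183M (correlations 0.790, 0.558 and 0.501). The replicate numbers were taken to pair these 2 groups in alternative fits only, from the data and not from the labels. Deviations from a mean of 3 arrays sum to 0, so these correlations are not independent of each other and do not establish a pairing. In both groups replicate 1 had the highest share of spots well above background (99.1% and 72.8%). The part of this in the correlations was not tested. In the other 5 comparisons at least 1 same-numbered pair was below 0.1, and the numbers were not taken to pair the samples. Replicates 1 and 2 of control and delta had correlations of -0.814 and -0.805, as large but with the opposite sign.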

Additional observations from a re-analysis of the deposited data

How the results depend on the processing

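No sarcomere or Z-disc gene passed an adjusted p of 0.05 under any setting tried (27 to 30 per comparison). The smallest adjusted p of a member over these settings was 0.213, 0.180 and 0.0736 for I183M, I183P and delta against control, 0.0527 for I183P versus I183M, 0.0775 for delta versus I183M, 0.113 for delta versus I183P and 0.0682 for the F test. With the replicate number as a block in all 4 groups (correlations of same-numbered arrays from -0.814 to 0.790), 0 members passed in each comparison, and over all genes the counts were 0, 1 and 13 against control. In a paired fit of control and I183M alone, 0 members passed. At an unadjusted p under 0.05 that fit had 0 members and 354 of all 29773 genes. The fit of all arrays without a block had 1 member and 434 genes. Leaving out 1 array at a time moved the members' median fold between 0.03 and 0.69 in I183M versus control, 0.02 and 0.70 in I183P versus control, and 0.04 and 0.67 in delta versus control. The lower ends are the values without control replicate 1. Subtracting each array's median moved the median fold to 1.26 in I183P versus control, 0.57 in I183P versus I183M and -0.38 in delta versus I183P. Among named folds, 1156 values under alternatives kept their direction and side of the threshold and 30 turned sign. Under the array median, Mypn turned to 0.27 in I183P versus I183M and -0.076 in delta versus I183P, Myom3 to 0.45 in I183P versus control, and Trim55 to 0.044 and 0.40 in I183M and I183P versus control. Trim55 in I183M versus control also turned to 0.030 with array weights and 0.021 on the quantile scale without control replicate 1. Myl2 in I183M, I183P and delta versus control was -0.055, -0.029 and -0.032 on the quantile scale, -0.054, -0.029 and -0.030 in the authors' deposited table, -0.055, -0.037 and -0.057 on the quantile scale with the slide as a block, and -0.031, -0.0051 and -0.0086 there without control replicate 1. Tnnt2 in I183M versus control was -0.027, -0.027 and -0.054 under the quantile scale, the same with the slide block, and the same without control replicate 1. Palld in delta versus control was -0.26 on the quantile scale and in the authors' deposited table, -0.12 with the slide block added, -0.20 without control replicate 1 there, -0.14 with array weights, -0.15 without control replicate 1 with and without the replicate block, -0.087 with delta replicate 3 left out too, and between -0.15 and 0.42 over the single arrays left out. The settings that combine 2 choices were chosen after seeing the data. The cause of these changes was not tested.

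With 3 arrays a group, 1 array apart in control and delta on a slide without control, differences under about the interval half-widths given above cannot be resolved.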
